A study of Mus musculus with 12 samples.

Results

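The 10 genes Col6a1, Col6a2, Col6a3, Col8a1, Col8a2, Col12a1, Col14a1, Col15a1, Col16a1 and Col18a1 encode non-fibrillar collagen chains of 4 kinds. They were taken by gene symbol from the deposited table of all genes, where each symbol matched exactly 1 of 50600 gene identifiers. Gene expression was measured by RNA sequencing of the descending thoracic aorta, from the left subclavian artery down to the diaphragm, in 3 groups of 4 C57BL/6J mice. Off-drug mice received minoxidil in their drinking water from 2.5 months of age, over 2 weeks, followed by a drug-free week (1 week). On-drug mice received it for the same 2 weeks and were sampled at its end, and control mice drank plain water. All 12 mice, controls included, were heterozygous for elastin (Eln+/-), so no comparison with wild-type aorta was made. Every sample carries an age label of 3 months, although by the schedule the off-drug mice were older by the drug-free week, and this difference cannot be told apart from withdrawal. Minoxidil opens ATP-sensitive potassium channels and dilates vessels, and its dose is not given in the labels.

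Collagen VI is assembled from alpha1, alpha2 and alpha3 chains and forms beaded filaments around cells, where it links them to basement membranes and fibrils. Collagen VIII is a short-chain network collagen of the vessel wall that is known to increase in injured arteries. Collagens XII, XIV and XVI are FACITs, which lie on the surface of collagen fibrils or microfibrils and connect them to other matrix molecules. Collagens XV and XVIII are multiplexins, proteoglycans of basement membrane zones, and the C-terminal end of collagen XVIII is the source of endostatin, an inhibitor of vessel growth.

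The promoters of the 3 collagen VI genes among the 10 are shown. These chains were called up on drug and down off drug against on drug, as were Col12a1, Col14a1 and Col16a1. Col6a2 and Col6a1 are neighbours on the minus strand of chromosome 10, 85161 bases apart, and Col18a1 follows on the same strand after a further 326009 bases. Col6a3 lies on chromosome 1. Each sequence runs 5′ to 3′ from 250 bases before to 50 bases after the gene start in RefSeq (GRCm38.p6, minus strand), and capitals mark matches to the motifs described next. The windows are chr10:76725995-76726294 for Col6a1, chr10:76623355-76623654 for Col6a2 and chr1:90843922-90844221 for Col6a3.
Col6a1: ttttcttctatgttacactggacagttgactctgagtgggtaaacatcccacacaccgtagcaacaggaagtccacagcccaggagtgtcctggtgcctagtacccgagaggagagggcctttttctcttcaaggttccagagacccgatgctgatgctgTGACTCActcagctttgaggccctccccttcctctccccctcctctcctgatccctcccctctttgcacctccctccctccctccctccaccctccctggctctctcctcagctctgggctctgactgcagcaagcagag
Col6a2: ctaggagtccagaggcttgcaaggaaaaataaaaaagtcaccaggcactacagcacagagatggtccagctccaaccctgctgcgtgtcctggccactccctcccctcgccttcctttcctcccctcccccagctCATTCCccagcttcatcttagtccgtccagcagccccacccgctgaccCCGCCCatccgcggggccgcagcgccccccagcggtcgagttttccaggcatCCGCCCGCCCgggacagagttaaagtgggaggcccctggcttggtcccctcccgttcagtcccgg
Col6a3: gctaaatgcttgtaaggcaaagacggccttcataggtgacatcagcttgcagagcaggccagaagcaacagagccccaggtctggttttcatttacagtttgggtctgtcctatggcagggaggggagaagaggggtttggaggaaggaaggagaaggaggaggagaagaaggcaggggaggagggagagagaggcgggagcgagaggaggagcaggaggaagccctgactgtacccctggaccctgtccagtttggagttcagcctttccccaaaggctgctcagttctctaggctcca

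RefSeq windows were at hand for 8 of the 10 chains, with 2 alternative starts for Col6a2 and for Col18a1, which made 10 windows. Both strands were searched for AP-1 (TGANTCA), an E-box (CACGTG), a TEAD motif (GGAATG), a SMAD palindrome (GTCTAGAC), a GC box (GGGCGG) and a TATA box (TATAAA). AP-1 matched in 1 chain window, that of Col6a1 starting at -90, against 7.81% of 32851 promoter windows. TEAD matched in 2 windows, those of Col6a2 at -115 and of the second Col18a1 start, against 14.7% of all windows. GC boxes matched in 6 of the 10 windows, against 35.7% of all windows, and in Col6a2 the matches at -15 and -11 overlapped each other. The E-box, SMAD and TATA letters were found in 0 of the 10 windows, against 7.15%, 0.213% and 13.6% of all windows. In these letters the 3 collagen VI windows had no motif in common, and the Col6a3 window held none of the 6. The GC content of the 3 printed windows was 57.3% for Col6a1, 64.3% for Col6a2 and 56.3% for Col6a3, beside a median of 52.7%.

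All 10 chains passed the expression filter, with at least 778 counts in every library. Library totals lay between 54607008 and 101574049 counts off drug, 41524501 and 109423243 on drug and 58825539 and 77423200 in controls. Values below are CPM, counts scaled to library size and composition with TMM factors, in the order of replicates 1 to 4. A call is an adjusted p below 0.05 in edgeR's quasi-likelihood test over 24660 genes, and ± gives the SD over 4 mice beside a mean and the SE beside a log2 fold change. Smooth muscle genes were abundant, with Acta2 between 7007 and 9861 CPM and Myh11 between 3651 and 5286 CPM in every library. In bulk tissue, fewer cells of a type and less RNA per cell cannot be told apart.

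On drug, 8 of the 10 chains were called up against controls and 0 down. Of all tested genes 7.07% were called, 4.13% up and 2.94% down. Among these 10, all 3 collagen VI chains, all 3 FACIT chains and both multiplexin chains rose, and neither collagen VIII chain was called. The median log2 fold change of the 10 chains was 0.46, against 0.0049 over all genes. The 4 on-drug libraries lay above all 4 controls for each of the 8 called chains, and 12.3% of all genes did not overlap between these groups in either direction. In off-drug mice 1 chain was called down against controls and 0 up, and 5 of the 10 had a positive log2 fold change. The median log2 fold change was 0.00026 (-0.0077 over all genes), and 12% of all genes were called, 6.27% up and 5.77% down. Off drug against on drug, 7 chains were called down and 0 up, and 0 of the 10 had a positive log2 fold change. The median was -0.42 (-0.0011 over all genes), while 12.4% of all genes were called, 5.44% up and 6.92% down. All off-drug values lay below all on-drug values for 6 of the 7, Col15a1 being the exception, and 18.8% of all genes did not overlap in either direction. The 2 comparisons with on-drug mice share those 4 libraries, and the 2 comparisons with controls share the controls, so they are not independent.

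**Figure D1:**
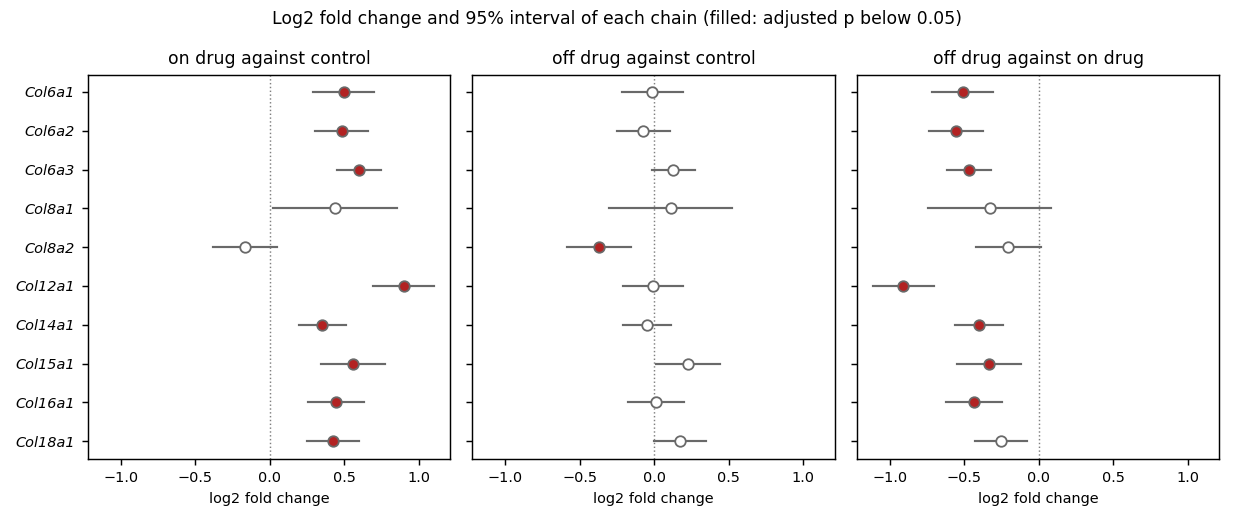
Log2 fold change (x axis) of each of the 10 chains (y axis) in the 3 comparisons, with 95% intervals from edgeR, with filled points for an adjusted p below 0.05. The panel of on-drug mice and controls holds 8 filled points, that of off-drug mice and controls 1, and that of off-drug and on-drug mice 7.

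Col6a3, whose alpha3 chain carries many von Willebrand factor A modules, had 707, 723, 695 and 639.8 CPM off drug. It had 911, 970.3, 1074 and 877 CPM on drug and 645, 676, 582 and 627 CPM in controls. All on-drug values exceeded every value of the other 8 libraries. Col6a3 (ENSMUSG00000048126.16, chromosome 1, 90765923 to 90843971, minus strand, GRCm38) was 1.51-fold higher on drug than in controls (log2 fold change 0.60 ± 0.070, adjusted p = 7.2e-05). Off drug it was lower than on drug by a log2 fold change of -0.47 ± 0.070 (adjusted p = 0.00016). Against controls the off-drug level differed by 0.13 ± 0.070, which did not pass (adjusted p = 0.265, 95% interval -0.019 to 0.27).

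Col6a1, the alpha1 chain, had 321, 333, 313 and 281 CPM off drug. It had 387, 472, 492 and 426 CPM on drug and 379, 313, 298 and 268 CPM in controls. Control replicate 1 came close to the lowest on-drug library, and the other 3 controls lay well below it. Col6a1 (ENSMUSG00000001119.7, chromosome 10, 76708792 to 76726168, minus strand) rose 1.41-fold on drug (0.50 ± 0.097, adjusted p = 0.0061) and stood lower off drug than on drug (-0.51 ± 0.097, adjusted p = 0.0019). Off drug against control it differed by -0.013, with an interval of -0.22 to 0.19.

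Col6a2, the alpha2 chain, had 361, 366, 341 and 309 CPM off drug. It had 444, 546, 553 and 482 CPM on drug and 419, 359, 339.9 and 329.7 CPM in controls. The order of the libraries within each of the 3 groups was that of Col6a1. Col6a2 (ENSMUSG00000020241.13, chromosome 10, 76595762 to 76623630, minus strand) rose 1.399-fold on drug (0.48 ± 0.085, adjusted p = 0.0027) and was lower off drug than on drug (-0.56 ± 0.085, adjusted p = 0.00022). Off drug against control the difference of -0.073 had an interval of -0.25 to 0.11.

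**Figure D2:**
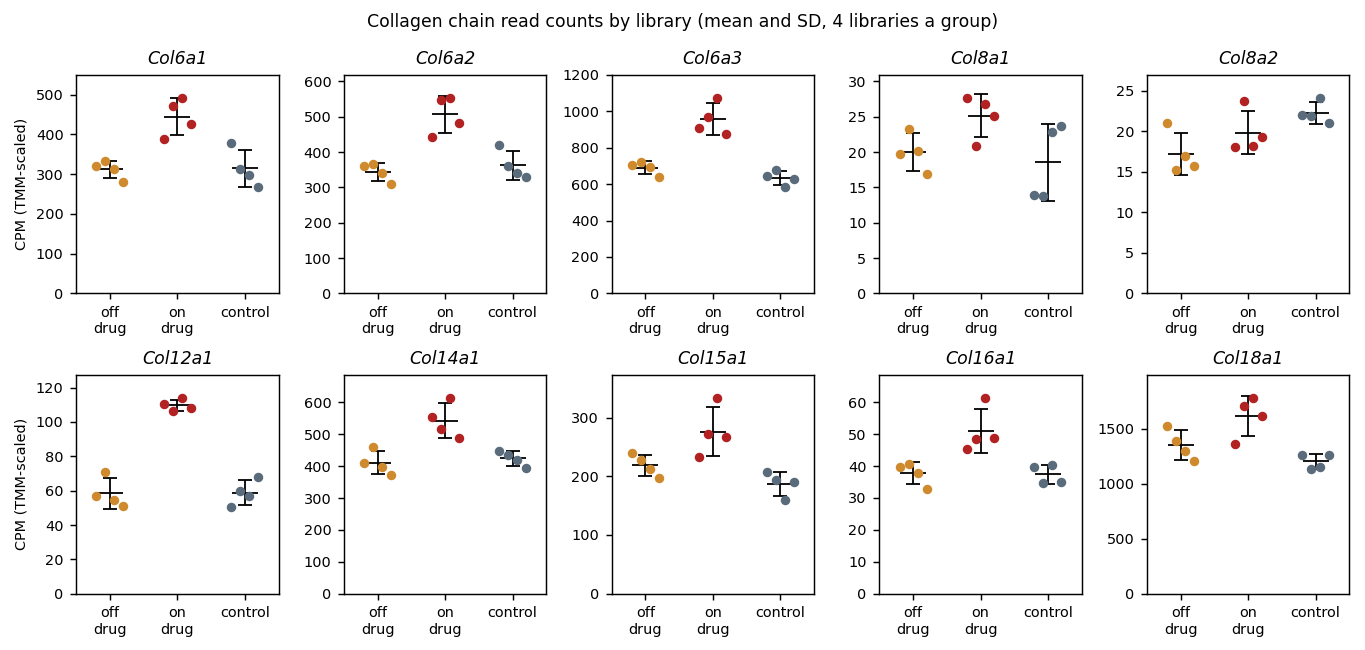
CPM (y axes, from 0) of each chain in the 12 libraries by group (x axes), points for libraries and bars for the mean and SD of 4. On drug Col12a1 lies between 106 and 114 CPM, above every off-drug and control library, and Col8a2 is the one chain whose control mean is the highest.

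Levels were compared between genes only after division by exonic length, as CPM per kilobase (RPKM), and the lengths cover all annotated exons of a gene. Per kilobase, the Col6a2 to Col6a1 ratio was 0.573 to 0.592 off drug, 0.592 to 0.609 on drug and 0.581 to 0.646 in controls. The Col6a3 to Col6a1 ratio was 0.795 to 0.835 off drug, 0.753 to 0.861 on drug and 0.623 to 0.856 in controls. Neither ratio passed an exact permutation test between any 2 groups, with adjusted p between 0.343 and 0.743 over 12 ratio comparisons. Such a test of 4 against 4 libraries cannot give less than 0.0286 before adjustment. After adjustment over 12 comparisons, groups fully apart in a single comparison would not pass either, so the test cannot show that ratios were equal. The difference in log2 ratio lay between -0.065 and 0.13 for these 2 pairs.

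Among the FACITs, Col12a1 encodes the chain of collagen XII, which binds fibrils of load-bearing tissue and is known to bind tenascin-X. Col12a1 had 56.6, 71.1, 54.7 and 51.1 CPM off drug. It had 110.4, 106, 114 and 108 CPM on drug and 50.6, 59.6, 56.8 and 68.1 CPM in controls. The on-drug libraries were the most uniform of any chain in any group, with a coefficient of variation of 2.95%, and all lay above the highest of the other 8. Col12a1 (ENSMUSG00000032332.17, chromosome 9, 79598991 to 79718831, minus strand) rose 1.87-fold on drug (0.90 ± 0.096, adjusted p = 6.3e-05), more than 97.9% of all tested genes. Off drug it was lower than on drug by -0.91 ± 0.096 (adjusted p = 1.0e-05), and against controls the interval was -0.21 to 0.19.

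Col14a1, the chain of collagen XIV, which is known to regulate fibril diameter, was far more abundant. It had 409.7, 460.5, 398 and 374 CPM off drug. It had 555, 515, 613 and 488 CPM on drug and 448, 436, 419 and 395 CPM in controls. Col14a1 (ENSMUSG00000022371.15, chromosome 15, 55307750 to 55520803, plus strand) rose 1.28-fold on drug (0.35 ± 0.076, adjusted p = 0.0093), the smallest of the 8 rises. That call was lost without on-drug replicate 3 (adjusted p = 0.0519). Off drug it was lower than on drug (-0.40 ± 0.076, adjusted p = 0.0015) and within -0.21 to 0.11 of controls.

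The ratio of Col12a1 to Col14a1 per kilobase was 0.0630 to 0.0711 off drug, 0.0855 to 0.102 on drug and 0.0520 to 0.0794 in controls. The on-drug range lay above both other ranges, and because this pair was chosen after its values were seen, it was not tested. Col16a1, the chain of collagen XVI, a minor component linked to fibrils and microfibrils, had 39.8, 40.5, 37.7 and 32.9 CPM off drug. It had 45.4, 48.5, 61.2 and 48.9 CPM on drug and 39.6, 34.8, 40.3 and 35.0 CPM in controls. Col16a1 (ENSMUSG00000040690.15, chromosome 4, 130047840 to 130099283, plus strand) rose 1.36-fold on drug (0.45 ± 0.090, adjusted p = 0.0068). It was lower off drug than on drug (-0.43 ± 0.090, adjusted p = 0.0033), and off drug against control the interval was -0.18 to 0.20.

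**Figure D3:**
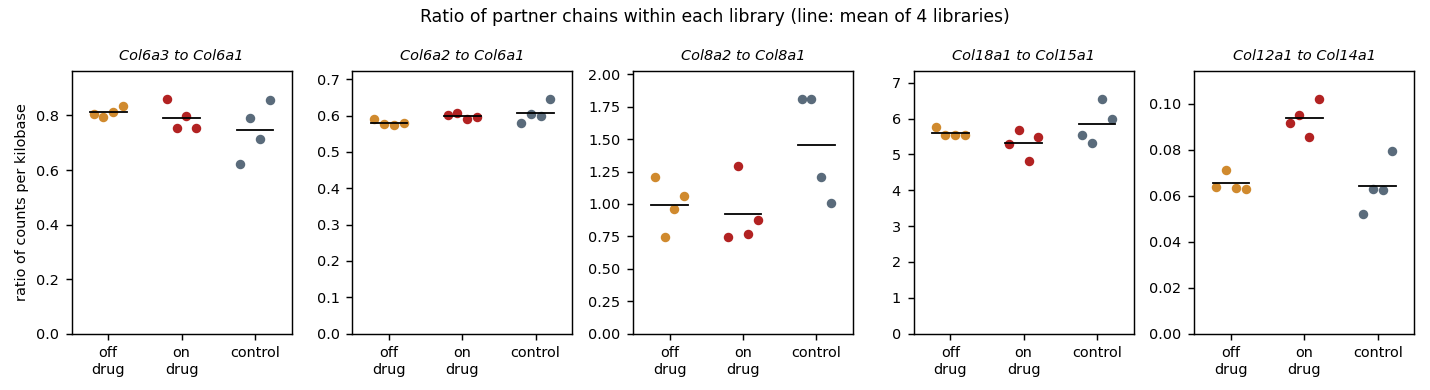
Ratio of the counts per kilobase of 2 chains within each library (y axes, from 0) by group (x axes), with lines for the mean of 4 libraries. The Col6a2 to Col6a1 ratio stays between 0.573 and 0.646 in all 12 libraries, and the Col12a1 to Col14a1 ratio is 0.0855 or more in the on-drug libraries and 0.0794 or less in the other 8.

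Of the multiplexins, Col18a1 was the most abundant chain in every group. It had 1526, 1391, 1298 and 1208 CPM off drug. It had 1358, 1704, 1777 and 1619 CPM on drug and 1265, 1134, 1149.9 and 1264 CPM in controls. The on-drug and off-drug groups overlapped, since on-drug replicate 1 lay below 2 off-drug libraries. Col18a1 (ENSMUSG00000001435.15, chromosome 10, 77052178 to 77166548, minus strand) rose 1.34-fold on drug (0.42 ± 0.084, adjusted p = 0.0056). Its difference off drug against on drug was -0.25 ± 0.084 and missed the threshold (adjusted p = 0.0562), and without on-drug replicate 1 it passed (-0.32, adjusted p = 0.0116), as it did without off-drug replicate 1 (-0.31, adjusted p = 0.0322). It passed in 7 of 25 other settings in all, the other 5 being DESeq2 (0.0396), limma-voom (0.0128), no filter (0.0063), a filter of 1 CPM in 4 libraries (0.0479) and adipocyte markers as a covariate (0.0432). The off-drug difference from controls was 0.17 ± 0.084 (adjusted p = 0.204).

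Col15a1, the chain of collagen XV, had 239, 227, 212 and 197 CPM off drug. It had 232, 272, 333 and 267 CPM on drug and 207, 193, 159 and 191 CPM in controls. On-drug replicate 3 was the highest library and on-drug replicate 1 lay within the off-drug range. Col15a1 (ENSMUSG00000028339.17, chromosome 4, 47208161 to 47313167, plus strand) rose 1.47-fold on drug (0.56 ± 0.10, adjusted p = 0.0047). It was lower off drug than on drug (-0.33 ± 0.10, adjusted p = 0.0417), a call that held in 10 of 25 other settings scored for this chain. With replicate number as a block its adjusted p was 0.0848, and it was lost without off-drug replicate 2 (0.0672), 3 (0.105) or 4 (0.118), on-drug replicate 2 (0.0848), 3 (0.129) or 4 (0.0696), or control replicate 2 (0.0629) or 4 (0.0580). From controls it differed off drug by 0.22 ± 0.10 (adjusted p = 0.176). The Col18a1 to Col15a1 ratio per kilobase was 5.54 to 5.78 off drug, 4.83 to 5.67 on drug and 5.31 to 6.55 in controls, with adjusted p between 0.400 and 0.654 in the exact permutation test.

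Collagen VIII is built from the chains of Col8a1 and Col8a2, and neither was called on drug against control. Col8a2, the alpha2 chain, had 21.0, 15.3, 16.9 and 15.7 CPM off drug. It had 18.1, 23.7, 18.2 and 19.4 CPM on drug and 22.1, 21.9, 24.1 and 21.0 CPM in controls. All off-drug libraries lay below all controls, off-drug replicate 1 by a narrow margin. Col8a2 (ENSMUSG00000056174.8, chromosome 4, 126286793 to 126314330, plus strand) fell to 0.772 of the control level off drug (log2 fold change -0.37 ± 0.10, adjusted p = 0.0234). This was the single chain called off drug against control, where 12% of all genes were called and 16.9% did not overlap. The call was lost without control replicate 3 (adjusted p = 0.0763) and without off-drug replicates 2 (0.0775), 3 (0.0596) or 4 (0.0741), and with library size alone as the scaling (log2 fold change -0.32, 0.0540) or fibroblast markers as a covariate (-0.36, 0.177). Its difference on drug against control was -0.17 ± 0.10 (adjusted p = 0.361). Against on-drug mice, the off-drug difference was -0.20 ± 0.10 (adjusted p = 0.225).

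Col8a1, the alpha1 chain, had 19.7, 23.3, 20.1 and 16.9 CPM off drug. It had 27.7, 20.9, 26.9 and 25.1 CPM on drug and 13.9, 13.8, 22.8 and 23.8 CPM in controls. The controls fell into a lower and a higher pair, and their coefficient of variation of 29.5% was the largest of any chain in any group. Col8a1 (ENSMUSG00000068196.4, chromosome 16, 57624258 to 57754737, minus strand) differed by 0.44 ± 0.19 on drug against control, which did not pass (adjusted p = 0.193, 95% interval 0.025 to 0.85). Its interval off drug was -0.30 to 0.52 against controls and -0.74 to 0.082 against on-drug mice. The Col8a2 to Col8a1 ratio per kilobase was 0.745 to 1.21 off drug, 0.745 to 1.29 on drug and 1.01 to 1.81 in controls. On drug against control the log2 ratio differed by -0.65, with an exact permutation p of 0.0857 (adjusted p = 0.343).

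**Figure D4:**
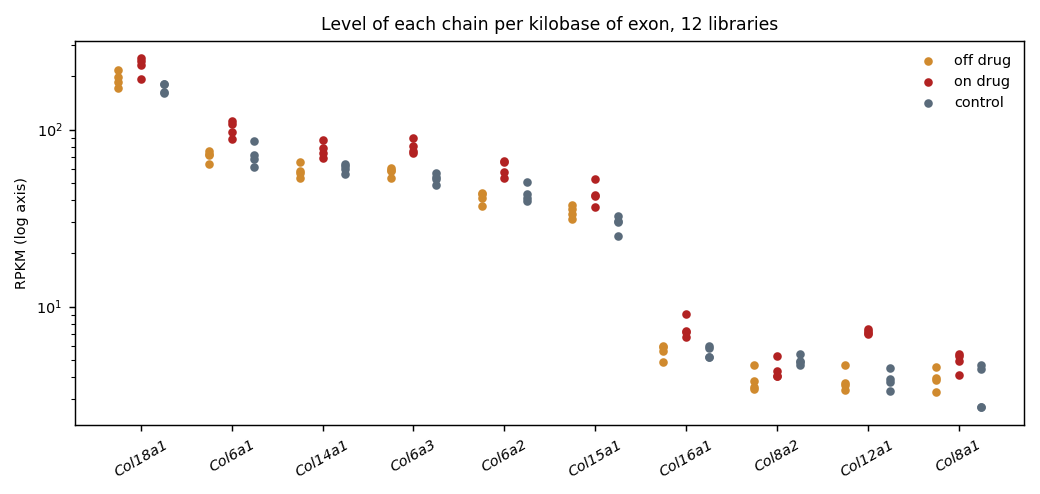
RPKM (y axis, log scale) of each chain (x axis, ordered by the control mean), with points for the 12 libraries by group. Col18a1 lies at 161.6 RPKM or more in every library, and Col16a1, Col8a2, Col12a1 and Col8a1 lie at 9.07 RPKM or less.

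By level per kilobase, Col18a1 stood highest at 193 ± 19.3 RPKM off drug, 230 ± 26.1 on drug and 171 ± 10.1 in controls. Col6a1 followed at 71.2 ± 5.11 RPKM off drug, 101 ± 10.7 on drug and 71.9 ± 10.7 in controls. In controls Col14a1 (60.5 ± 3.28), Col6a3 (52.9 ± 3.27) and Col6a2 (43.5 ± 4.80) came next, and the values of each neighbouring pair from Col6a1 to Col6a2 overlapped. Col15a1 (29.5 ± 3.20 RPKM in controls) lay apart from its neighbours on both sides. The lowest 4 in controls were Col16a1 (5.55 ± 0.436), Col8a2 (4.96 ± 0.294), Col12a1 (3.86 ± 0.476) and Col8a1 (3.63 ± 1.07), of which Col16a1 overlapped Col8a2 and Col12a1 overlapped Col8a1. Col12a1 had rank 10 of the 10 chains off drug (3.83 ± 0.577 RPKM), rank 8 on drug (7.20 ± 0.213) and rank 9 in controls. On drug its values overlapped those of Col16a1 (7.56 ± 1.03 RPKM).

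By the difference in centred log2 CPM over the 12 libraries, Col6a1 and Col6a2 were the closest to each other of 12212 genes compared, at a root mean square of 0.0444, where Col6a1 itself varied by 0.276 about its mean. Next came Col5a1, a chain of fibril-nucleating collagen V, for Col6a1 (0.0921) and Sparc, a collagen-binding glycoprotein, for Col6a2 (0.0742). Col5a1 was also the nearest gene to Col14a1 (0.0780, then Slc11a1 at 0.0838). The nearest to Col6a3 was Myof (0.0670, then Arhgap45 at 0.0841), to Col12a1 Ier3 (0.146, then Fndc1 at 0.157), and to Col15a1 Actg2 (0.0627, then Ptp4a3 at 0.0804). The nearest to Col16a1 was Arrb1 (0.0845, then Pamr1 at 0.0964), to Col18a1 Map2k3 (0.0618, then Adgre5 at 0.0653), to Col8a1 Igfbp6 (0.164, then Iqgap2 at 0.165) and to Col8a2 Asb5 (0.0791, then Akap8l at 0.109). These distances include the differences between groups and the shared libraries, and are descriptions without a test.

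Other chains of these families were also counted. Of 11 such genes listed, 10 passed the filter, and on drug against control 0 of the 10 were called up and 0 down in edgeR, with a median log2 fold change of -0.0021. At an unadjusted p below 0.05 there was 1, Col6a6, which was lower on drug (-0.22 ± 0.087). Several of these other chains had low levels, down to a group mean of 0.146 CPM. The SE of their log2 fold change on drug against control reached 0.56. At such levels a rise like the median of 0.46 of the main 10 chains could hardly be called. Col6a6, an alternative to the alpha3 chain, had 18.7 ± 1.52 CPM off drug, 23.7 ± 1.396 CPM on drug and 27.5 ± 3.43 CPM in controls. It was lower off drug than in controls (-0.56 ± 0.088, adjusted p = 0.00036) and than on drug (-0.34 ± 0.088, adjusted p = 0.0134). Col19a1, a FACIT chain, had 12.8 ± 0.787 CPM off drug, 9.90 ± 0.358 CPM on drug and 8.96 ± 0.615 CPM in controls. It was higher off drug than in controls (0.51 ± 0.082, adjusted p = 0.00047) and than on drug (0.37 ± 0.082, adjusted p = 0.0054). The other 8 had no call in any comparison. With 2 of 10 called off drug against control and 2 of 10 off drug against on drug, the counts stand beside the 12% and 12.4% of all genes called there.

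Of 5 chains that form the fibrils on which FACITs lie, 4 were called up on drug and 0 down. Off drug, 1 was called down against control and 5 against on-drug mice. Of all genes 4.13% were called up on drug, 5.77% down off drug against control and 6.92% down off drug against on drug. Col5a1 rose by 0.38 ± 0.066 on drug (adjusted p = 0.0022), Col5a2 by 0.37 ± 0.073 and Col1a1 by 0.85 ± 0.11. Col3a1 was the one fibril chain called down off drug against control (-0.64 ± 0.10, adjusted p = 0.00081), and 0 of the 5 had a positive log2 fold change there. Off drug against on drug Col5a2 was lower by -0.59 ± 0.073, Col1a1 by -1.01 ± 0.11 and Col3a1 by -0.88 ± 0.10. Of 15 receptors and binding partners, 5 rose on drug and 0 fell, with a median log2 fold change of 0.15. Tnxb, tenascin-X, had 632 ± 39.7 CPM off drug, 863 ± 12.4 CPM on drug and 546 ± 18.4 CPM in controls, and rose by 0.66 ± 0.057 on drug (adjusted p = 4.5e-06). Cspg4, the proteoglycan NG2, which binds collagen VI, rose by 0.52 ± 0.097 (adjusted p = 0.0049), and Itga11, an integrin subunit for fibrillar collagen, by 0.59 ± 0.11 (adjusted p = 0.0050). In off-drug mice 3 partners were called up against controls and 2 down, where 6.27% and 5.77% of all genes were called up and down. Bgn, biglycan, a small proteoglycan, was higher by 0.30 ± 0.081 (adjusted p = 0.0211), and Antxr1, a collagen VI receptor, was lower by -0.28 ± 0.065 (adjusted p = 0.0094), as was Itga10, a collagen-binding integrin subunit, by -0.40 ± 0.11 (adjusted p = 0.0177). Off drug against on drug 4 partners were called down and 0 up, among them Tnxb (-0.45 ± 0.057), Antxr1 (-0.37 ± 0.065) and Itga11 (-0.65 ± 0.11).

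Some marker genes of the wall's cell types differed between the groups, and most did not pass on drug against control. Of all genes 4.13% were called up on drug and 6.92% down off drug against on drug. Of 7 adventitial fibroblast markers, 2 were called up on drug, and 3 were called down off drug against on drug, with 0 at zero reads in a group. Their summed level was 806 to 949 CPM off drug, 1065 to 1168 CPM on drug and 960.2 to 1087 CPM in controls. Of 8 smooth muscle markers 2 were up on drug, and their summed level was 17520 to 20044 CPM off drug, 18208 to 20897 CPM on drug and 15972 to 18472 CPM in controls, so that the groups overlapped. Of 8 blood endothelial markers 2 were up on drug, with sums of 669.6 to 855 CPM off drug, 906 to 1039 CPM on drug and 729 to 821 CPM in controls. Of 5 lymphatic endothelial markers 4 were up on drug, with sums of 50.1 to 64.6, 108 to 128 and 65.5 to 87.1 CPM in the same order of groups. Off drug against on drug, 4 blood endothelial markers were called down and 1 up, and 3 lymphatic markers were called down and 0 up. Among smooth muscle markers 1 was called up and 1 down there, where 5.44% of all genes were called up. Fits with a marker level as a covariate used the mean log2 CPM of the markers, each scaled over the 12 libraries, and not the summed CPM. With this mean fibroblast marker level as a covariate, 5 chains were called up on drug, and 3 calls were lost. The log2 fold changes of these 3 were 0.39 for Col6a1 (adjusted p = 0.0552), 0.23 for Col14a1 (0.110) and 0.28 for Col16a1 (0.0720), against 0.50, 0.35 and 0.45 without the covariate. In that fit 1 chain, Col12a1, was called down off drug against on drug. With the smooth muscle marker level as a covariate, 2 chains, Col6a3 and Col12a1, were called up on drug. The 6 that lost their calls kept positive log2 fold changes, which were 0.34 for Col6a1 (adjusted p = 0.194), 0.32 for Col6a2 (0.122), 0.36 for Col14a1 (0.105), 0.32 for Col15a1 (0.119), 0.37 for Col16a1 (0.183) and 0.21 for Col18a1 (0.230). These marker levels differ between the groups, so such fits also take up part of the group difference. Of 6 macrophage markers 1 was called up on drug and 4 were called down off drug against on drug. The part of endothelial and macrophage markers in these results was not tested.

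The summed level of the 10 chains was 3466 ± 265 CPM off drug, 4547 ± 419 CPM on drug and 3262 ± 166 CPM in controls. Within the on-drug group the sum was highest in replicate 3, the library with the fewest counts, and lowest in replicate 1, the library with the most. Off-drug replicate 4, the deepest of its group, had the lowest sum there and lay below the group mean for all 10 chains. In both of these groups the sum fell at every step up in total count. Controls kept this order except for replicate 3, which had the fewest counts and the lowest sum (3093 CPM) of that group. Control replicate 4, the deepest, had 3222.5 CPM, below replicates 1 (3490.1 CPM) and 2 (3241 CPM). With log2 total count as a covariate, chosen after seeing this, the on-drug calls were 8 up and the calls off drug against on drug 7 down. In that fit Col15a1 (0.28, adjusted p = 0.0293) and Col18a1 (0.22, adjusted p = 0.0327) were called up off drug against control.

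**Figure D5:**
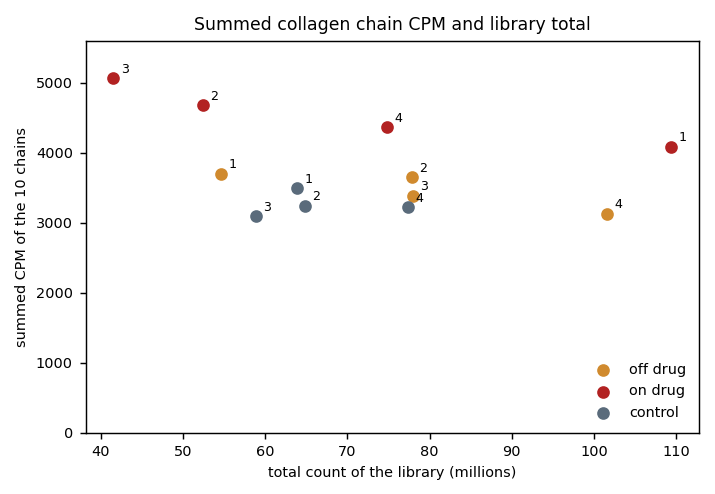
Summed CPM of the 10 chains (y axis, from 0) against the library's total count (x axis), with points for libraries numbered by replicate. The 4 on-drug libraries lie at 4088 CPM or more and the other 8 at 3699.5 CPM or less.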

How the data were processed

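The authors deposited whole-number read counts per gene for each of the 12 libraries, with featureCounts (1.4.6-p3) as the counter, M13 as the GENCODE mouse annotation and a STAR 2.5.3a index, per the file headers. The submitters' processing notes name GRCm38. Per the same headers, a multi-mapping read, or one over more than 1 gene, was counted for every match, and strand was ignored. Among the 10 chains, exons of another gene overlapped those of Col15a1 alone, over 14 bases. The deposited series table of log2 values, which matched log2(count / DESeq2 size factor + 1) within 5e-09, gave symbols and coordinates.

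Counts were analysed with edgeR 4.0.16 in R 4.3.3: filterByExpr (minimum count 10, minimum total 15) kept 24660 of 50600 genes, TMM scaled the libraries, and 1 robust quasi-likelihood model with 3 groups gave 3 two-sided contrasts, adjusted by Benjamini-Hochberg over all genes. RPKM divides CPM by exonic length. Chain ratios were tested with two-sided exact permutation tests. Of these steps, only the edgeR fit was tested on simulated counts. The chains, lists, tests and other settings were chosen with earlier results of these data known. All 10 chains are named, with at most 3 called genes per other list and comparison, by smallest adjusted p, and the 2 genes nearest in pattern to each chain. Marker lists are given as counts and sums, apart from Acta2, Myh11 and the skeletal muscle markers called against control. Libraries with the same replicate number shared little deviation (closing section) and were not paired in the main model. Other settings included DESeq2 1.42.0 and limma 3.58.1. The second deposited table was not used here.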

Additional observations from a re-analysis of the deposited data

How the results depend on the processing

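The chains were refitted in 25 other settings (DESeq2, limma-voom, other scalings, filters and covariates, 2 groups alone, and each of 12 libraries left out), of which log2 total count was chosen after seeing the data. On drug, Col6a3 and Col12a1 kept their calls in all 25, and the direction of the 10 chains did not change in any of them. Chains called up on drug numbered 5 with fibroblast markers and 2 with smooth muscle markers as a covariate, in place of 8, and 7 to 8 with a library left out. Chains called down off drug against control, 1 in the main test, numbered 0 without composition factors and 0 with fibroblast markers as a covariate, and 0 to 1 with a library left out, and 2 were called up with log2 total count as a covariate. Off drug against on drug 7 were down, 1 with fibroblast markers as a covariate and 6 to 8 with a library left out. All genes called on drug numbered 1743, and 824 with fibroblast markers, 190 with smooth muscle markers, 1147 with the 2 groups alone, 2812 with DESeq2 and 803 to 2290 with a library left out, with 803 without on-drug replicate 3, 918 without on-drug replicate 4 and 906 without control replicate 3. Off drug against control they numbered 2967, and 1126 with fibroblast markers, and off drug against on drug 3047 and 457. With a library left out these 2 counts ran from 1989 to 3553 and from 2254 to 3252.

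The small differences off drug against control changed sign. Without composition factors Col6a1 had 0.038, Col12a1 0.053 and Col14a1 0.0063. With fibroblast markers as a covariate Col6a1 had 0.13, Col6a2 0.038, Col12a1 0.054 and Col14a1 0.11. Col16a1 had -0.023 with adipocyte markers and -0.028 with smooth muscle markers, where Col12a1 had 0.0010. Col6a1 had 0.0028 in limma-voom and 0.041 with log2 total count. With a library left out, the range was -0.082 to 0.086 for Col6a1, -0.11 to 0.0025 for Col6a2, -0.018 to 0.25 for Col8a1, -0.12 to 0.069 for Col12a1 and -0.030 to 0.072 for Col16a1. The log2 ratio of Col6a2 to Col6a1 on drug against control ran from -0.039 to 0.012 with a library left out. None of these values passed in any of the settings, and the cause was not tested.

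The replicate number as a block ended 1 chain call, that of Col15a1 off drug against on drug (adjusted p = 0.0848), and left 6 chains down there. It changed no other chain call. Same-numbered libraries had correlations of their deviations between -0.0797 and 0.0672. They thus shared little deviation, which cannot exclude that the numbers mark some pairing.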

Other observations

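Off drug against control, 3 of 3 erythroid markers were called down, as were 5.77% of all genes. Their summed level was 1111 to 2605 CPM off drug, 2124 to 3282 CPM on drug and 2673 to 11152 CPM in controls. Of 6 skeletal muscle markers 1, Ckm, was called up off drug against control (0.85 ± 0.15, adjusted p = 0.0010), where 6.27% of all genes were called up. All 6 had a positive log2 fold change in that comparison. On drug against control 2 were called up, Ckm (0.72 ± 0.15, adjusted p = 0.0082) and Tnnt3 (0.87 ± 0.25, adjusted p = 0.0379). There 3 of the 6 had a positive log2 fold change, and 4.13% of all genes were called up. Off drug against on drug 1 of the 6 was called up and 5 had a positive log2 fold change, where 5.44% of all genes were called up. The 6 skeletal muscle markers had sums of 6.18 to 17.3 CPM off drug, 7.02 to 9.44 CPM on drug and 4.62 to 6.21 CPM in controls. The 6 adipocyte markers had sums of 24.5 to 216 CPM off drug, 95.7 to 189.7 CPM on drug and 45.3 to 287 CPM in controls.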
